A study of Mus musculus with 9 samples.

Results

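Whole eyes of 2 albino mouse strains, A/J and BALB/c, were compared with those of the pigmented strain C57BL/6J for genes whose 3 C57BL/6J values all lay above or all below the 6 albino values. Such a gene is called separated here. Of 13089 genes listed in each library, 980 were separated, and 949 of these passed the filter on low values and were tested (465 higher and 484 lower in the albino libraries), while 31 fell below it. Among the genes that also passed the test below, the albino eyes were higher in 16 of 53 interferon-response genes, such as Isg15, and in Mc1r, the melanocortin receptor of pigment cells. They were lower in the cone phosphodiesterase Pde6c, in 4 keratins of the surface epithelium and in 5 genes of the MHC class II pathway, while Tyr and the other main melanin enzymes were not called. Of all genes tested, 1.29% passed the test as higher and 1.44% as lower in the albino strains. Many genes are separated in 9 libraries: the 949 genes are 7.35% of the 12914 genes tested, with 3.6% higher and 3.75% lower in the albino strains.

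All 3 groups were wild-type female mice of 4 weeks, each strain with 3 libraries, and each library was made from RNA pooled from 5 mice and enriched for poly(A) RNA. The stated purpose of the series was to examine eyes of strains whose retinas degenerate at different rates. It is not stated if a strain's 3 libraries hold separate pools of mice, so a p-value here speaks to the spread among libraries only, and that spread may be technical. With 1 pigmented and 2 albino strains, coat colour cannot be told apart from everything else in which C57BL/6J differs from both other strains.

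Albinism in A/J and BALB/c comes from a coding mutation of Tyr, the gene of tyrosinase, which catalyses the first steps of melanin synthesis. Both strains also carry the brown allele of Tyrp1, which encodes a related enzyme of the melanosome. In the eye, melanin is made by the retinal pigment epithelium and by melanocytes of the iris and choroid, where it absorbs stray light and binds metal ions. The epithelium also regenerates the visual chromophore and takes up shed photoreceptor outer segments.

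Values are RPKM (reads scaled to transcript length and to the number of mapped reads) divided by a size factor per library, called scaled RPKM below. Differences are given as albino minus C57BL/6J, with A/J and BALB/c weighted equally, on the log2(scaled RPKM + 0.5) scale, with the standard error (SE) from limma. A gene was called when its Benjamini-Hochberg adjusted p over all 12914 genes was under 0.05. The depth of the libraries is unknown. Libraries of a strain were unequally alike: the median SD of a gene among libraries of a strain was 0.264 (A/J), 0.102 (BALB/c) and 0.246 (C57BL/6J) on the log2 scale. On the first principal component, with 49.1% of the variance, the A/J libraries scored -42.37, -51.37 and 7.31 and the C57BL/6J libraries -7.76, 8.13 and 56.54. Deviations of genes followed GC content in most libraries, with Spearman correlations across genes between -0.72 (A/J 2) and 0.56 (BALB/c 2 and 3). Sag of rods (976 to 2942 scaled RPKM), Cryba1 of the lens (8729 to 34590) and Krt12 of the cornea (1487 to 3056) were present in all 9 libraries, as the label whole eye states. Results under omissions of libraries, other scalings, a replicate block and a correction for GC content are given for some of the genes and counts that they changed.

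limma called 353 genes, 2.73% of those tested, of which 167 (1.29%) were higher and 186 (1.44%) lower in the albino strains, and 1832 genes had an unadjusted p under 0.05. Of the 353 genes, 300 were also separated (2.32% of those tested). Separation and the call rest on the same values, so neither supports the other. The median log2 difference of all tested genes was -0.00238, the value against which the medians of gene lists below are read. Counts of called and of separated list members are read against 2.73% and 7.35% of all genes tested. The median size of the log2 difference was 0.55 among the 949 separated genes, 1.03 among the 300 called ones and 0.18 among all tested genes, as the plot of difference against level shows. The count of called genes moved with single libraries: leaving out A/J 1 gave 226, leaving out A/J 3 gave 717, and leaving out BALB/c 1, 2 or 3 gave 219, 203 or 209. Omitting the pair A/J 1 and A/J 2 gave 230 calls, and omitting the pair A/J 3 with C57BL/6J 3 gave 1421. Against C57BL/6J alone, A/J gave calls in 2.67% and BALB/c in 3.11% of the genes tested. In all, 182 genes were called with all 9 libraries and in each of the 9 omissions of 1 library, 81 of them higher and 101 lower in the albino strains.

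**Figure D1:**
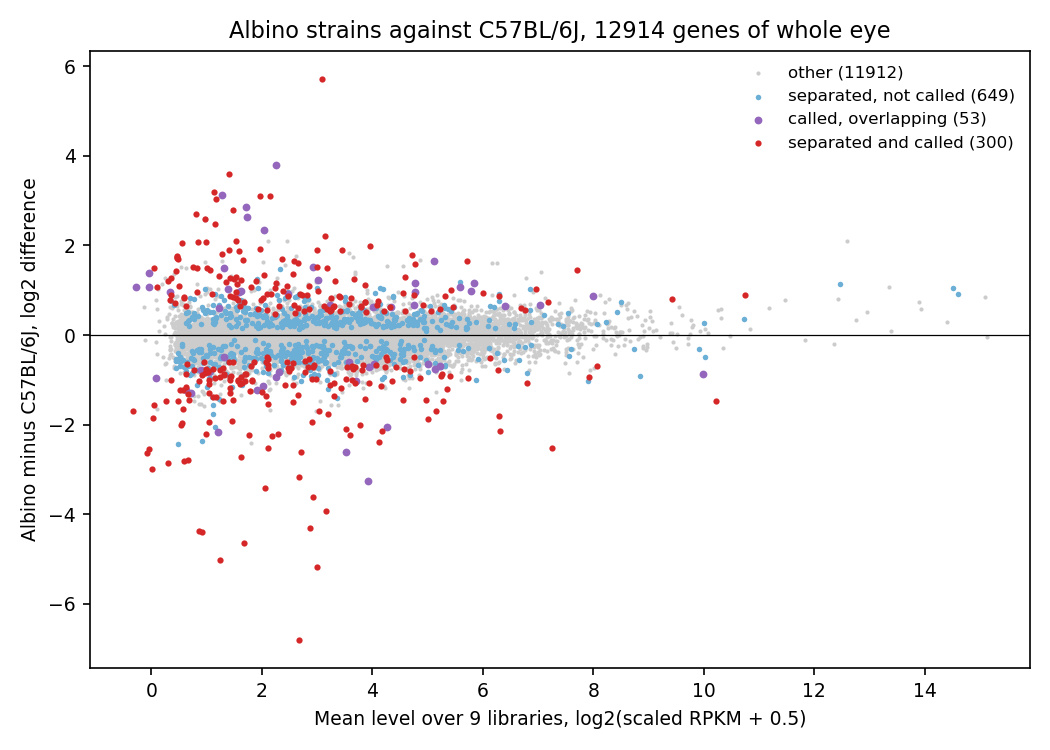
Difference between albino strains and C57BL/6J for the 12914 tested genes. The x axis is the mean level over 9 libraries on the log2(scaled RPKM + 0.5) scale, the y axis the log2 difference, and each point is a gene. The 300 separated and called genes (red) include Rpl26 at -6.80 and EG433182 at 5.72, separated genes that were not called are blue, and 53 called genes whose libraries overlap are purple.

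The genes of melanin synthesis were read at overlapping levels in albino and pigmented eyes, apart from Mc1r and Oca2, which were higher in every albino library. Of 16 measured members of the list, 1 was called higher and 0 lower, 2 were separated, and their median log2 difference was 0.16. Tyr was at 20.8, 21.1 and 15.3 scaled RPKM for A/J, 25.1, 22.3 and 22.7 for BALB/c, and 22, 22.8 and 12.9 for C57BL/6J. The libraries of the 3 strains overlapped, and its log2 difference was 0.16 (SE 0.19, adjusted p = 0.7). It reversed to -0.09 without C57BL/6J 3. Tyrp1 was between 169 and 274 scaled RPKM in the albino libraries and at 245, 206 and 151 in C57BL/6J (log2 difference 0.21, SE 0.2, adjusted p = 0.63), and without A/J 1 and A/J 2 the difference was -0.02. The other pigment genes likewise gave no call. Dct, the third enzyme of the pathway, gave 0.16 (SE 0.13, adjusted p = 0.6), and Pmel, the fibril protein of the melanosome listed as Si, gave 0.25 (SE 0.18, adjusted p = 0.55). Slc45a2, a melanosomal transporter, gave -0.02 (SE 0.16, adjusted p = 0.96), Mlana -0.53 (SE 0.22, adjusted p = 0.32), and Mitf, the transcription factor of pigment cells, 0.4 (SE 0.16, adjusted p = 0.32).

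Mc1r, the melanocyte receptor for melanocyte-stimulating hormone, was at 2.61, 2.91 and 3.38 scaled RPKM for A/J, 3.33, 3.98 and 3.91 for BALB/c, and 1.12, 1.25 and 1.33 for C57BL/6J. Every albino library lay above every C57BL/6J library, and the ratio of the means was 2.72 (log2 difference 1.14, SE 0.12, adjusted p = 0.00083). Taken singly, both albino strains were called higher than C57BL/6J, A/J by 1 and BALB/c by 1.29 on the log2 scale (adjusted p = 0.0049 and 0.0011), and the call of the joint albino contrast was kept in all 21 alternative analyses. Oca2, a melanosomal anion transporter gene, was separated but not called: it was at 19.8, 15.4 and 14.2 for A/J, 12.6, 13.2 and 13.4 for BALB/c, and 11.6, 10.6 and 8.48 for C57BL/6J (log2 difference 0.5, SE 0.14, adjusted p = 0.12). Of the 20 genes on both sides of Tyr in the GRCm38 gene order, 0 were called and 1 was separated, with log2 differences from -0.51 to 0.72. The 20 genes around Tyrp1 gave 0 calls and 1 separated gene, with differences between -0.33 and 0.59.

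In the pigment epithelium list, none of 22 members was called and 2 were separated (median log2 difference 0.01). Rpe65, the isomerase that regenerates the chromophore, was at 235, 253 and 115 scaled RPKM for A/J, 108, 109 and 120 for BALB/c, and 92.3, 81.2 and 48.2 for C57BL/6J. All 6 albino values were above the C57BL/6J values, but the 2 highest came from A/J 1 and A/J 2 and the difference did not pass the test (log2 difference 1.03, SE 0.28, adjusted p = 0.11). The other separated member was Rbp4, the plasma carrier of retinol, at 1.24 to 3.18 in the albino libraries and 0.855 to 1.07 in C57BL/6J (log2 difference 0.92, SE 0.22, adjusted p = 0.073). Among 20 genes of melanosome transport, 0 were called and 2 were separated, beside 7.35% of all genes tested. These were Pldn and Vps33a, with differences of 0.38 and 0.17. Myo7a, a motor that moves melanosomes and phagosomes in the epithelium and also works in photoreceptors, was lower in the albino strains. It was at 1.91, 1.44 and 2.18 for A/J, 2.62, 3 and 2.98 for BALB/c, and 4.5, 5.29 and 5.51 for C57BL/6J (log2 difference -1.0, SE 0.13, adjusted p = 0.0037). Myo7a belongs to another list, phagocytosis and lysosome, with 34 measured members and a median of -0.00. Of these, 0 were called higher and 2 lower, beside 1.29% and 1.44% of all genes tested. In a bulk sample of the whole eye, fewer cells of a type and less RNA per cell cannot be told apart.

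**Figure D2:**
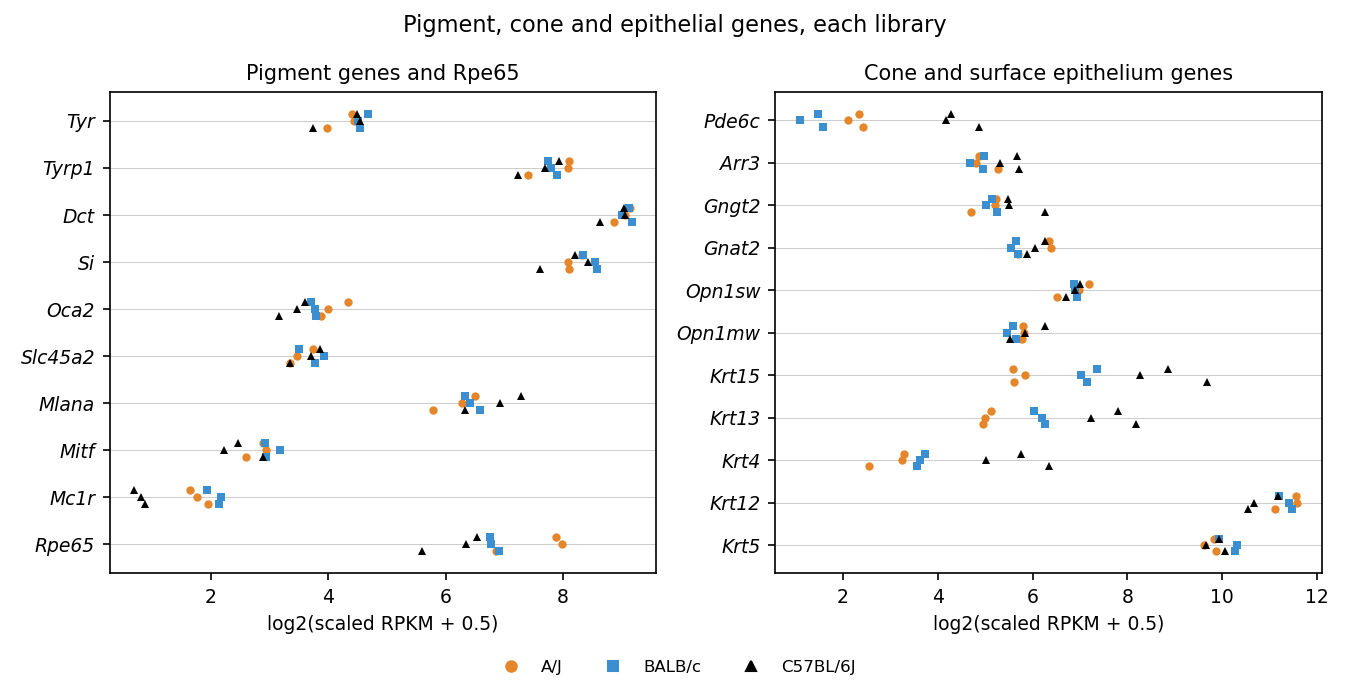
Pigment genes with Rpe65 (left) and cone and surface epithelium genes (right) in each library. The x axis is log2(scaled RPKM + 0.5), and each symbol is 1 library of A/J (circles), BALB/c (squares) or C57BL/6J (triangles). Mc1r is the pigment gene with a call, and Pde6c, Krt15, Krt13 and Krt4 are lower in every albino library, while the symbols of Krt5 and the cone opsins Opn1sw and Opn1mw overlap.

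Among the called genes of the photoreceptor, retinal neuron and glia lists, the cone phosphodiesterase Pde6c had the largest difference. Pde6c, the catalytic subunit of the enzyme that closes the cone transduction channel in light, was at 4.59, 3.79 and 4.84 scaled RPKM for A/J, 2.3, 1.64 and 2.5 for BALB/c, and 18.9, 17.6 and 28.8 for C57BL/6J. The groups were far apart, with a highest albino value of 4.84 and a lowest C57BL/6J value of 17.6, and the C57BL/6J mean was 6.65-fold the albino mean (log2 difference -2.61, SE 0.19, adjusted p = 9.5e-05). It was called in all 21 alternatives. The other cone genes did not pass the test: of 14 measured, 1 was called lower, 0 higher, 6 were separated and all of those 6 were lower in the albino strains, 12 had a negative difference, and the median was -0.24. Arr3, cone arrestin, came next among the separated ones by adjusted p, at 25 to 38.4 in the albino libraries and 39 to 51.7 in C57BL/6J (log2 difference -0.63, SE 0.15, adjusted p = 0.076). Slc24a2, a cone ion exchanger that was separated but not called, was at 3.14, 3.53 and 6.44 in C57BL/6J, the highest in C57BL/6J 3, and at 2.43 to 3.13 in the albino libraries. The cone opsins Opn1sw (0.02, SE 0.15, adjusted p = 0.96) and Opn1mw (-0.19, SE 0.16, adjusted p = 0.6) overlapped between the strains. Without A/J 3 and C57BL/6J 3 the count of cone genes called lower was 4.

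Rod genes gave 1 call among 26 members, beside 2.73% of all genes tested. In this list 1 separated member was higher and 3 were lower, and the median was -0.14. Sag, rod arrestin, which ends the light response of rods, was at 2444, 2942 and 2071 scaled RPKM for A/J, 1845, 1793 and 1791 for BALB/c, and 1239, 1225 and 976 for C57BL/6J (log2 difference 0.89, SE 0.14, adjusted p = 0.01). The groups did not overlap, and the call was lost without both A/J 1 and A/J 2. The 3 separated members that were lower gave no call: Guca1b (log2 difference -0.31), Gucy2f (-0.25) and Pdc (-0.49). Cerkl, a ceramide kinase-like gene mutated in a form of inherited retinal degeneration, was at 21.8, 22.8 and 26.8 for A/J, 23.5, 23.1 and 27.1 for BALB/c, and 6.22, 5.29 and 5.63 for C57BL/6J. Its albino values clustered tightly above those of C57BL/6J, with a ratio of the means of 4.23 (log2 difference 1.99, SE 0.12, adjusted p = 2.2e-05). Itga4, an integrin subunit gene that lies next to Cerkl, differed in the same direction, at 5.1 to 11.6 in the albino libraries and 1.51 to 2.13 in C57BL/6J (log2 difference 1.7, SE 0.18, adjusted p = 0.00084).

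Among inner retinal neurons and glia, 2 of 14 bipolar genes, 2 of 24 amacrine, horizontal and ganglion cell genes, 1 of 19 Mueller glia genes and 1 of 20 gliosis genes were called, beside 2.73% of all genes tested. Prkca, the kinase that marks rod bipolar cells, was called (log2 difference -0.59, SE 0.1, adjusted p = 0.012) although BALB/c, at 14.7 to 16.3 scaled RPKM, overlapped C57BL/6J at 14.5 to 16.3, and A/J alone was low at 6.19 to 6.3. Its call was lost in 2 omissions. Nefl and Nefm, the light and medium neurofilament subunits of ganglion cell axons, were both lower in the albino strains: Nefl was at 57.6, 55.2 and 57.4 scaled RPKM for A/J, 66.1, 75.4 and 74.7 for BALB/c, and 112, 120 and 98.1 for C57BL/6J (log2 difference -0.78, SE 0.11, adjusted p = 0.0047). Nefm gave -0.67 (SE 0.1, adjusted p = 0.0055) and was no longer called after a correction for GC content. They were the 2 calls among 24 amacrine, horizontal and ganglion cell genes, whose median was -0.11. Cabp5, a bipolar cell gene for a calcium-binding protein, was higher in the albino strains, at 42.5 to 81 against 21.7 to 33.8 (log2 difference 1.00, SE 0.19, adjusted p = 0.025). That call was lost in 6 of the 9 omissions of 1 library, with an adjusted p of up to 0.098. Kcnj10, the potassium channel of Mueller glia, was at 8.67 to 10.9 in the albino libraries and 4.93 to 6.73 in C57BL/6J (log2 difference 0.64, SE 0.13, adjusted p = 0.036). Its call was lost in 8 of 9 omissions (up to 0.12). Serpina3n, an acute-phase protease inhibitor induced in reactive glia, was the 1 call among 20 gliosis genes, at 9 to 20.6 in the albino libraries and 27.3 to 31.6 in C57BL/6J (log2 difference -1.13, SE 0.14, adjusted p = 0.0023), and 21.6% of the 31-base words (all runs of 31 bases) in its transcripts also occur at another locus, so that its reads can be ambiguous.

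Interferon-response genes held the highest number of calls among the 30 gene lists, and most of these calls were higher in the albino strains. It was also among the largest lists. The share called was larger in the MHC list (5 higher and 5 lower of 23) and the strain allele list (4 higher and 1 lower of 9). Type I interferons act through a complex of transcription factors that binds a short element in promoters and induces antiviral enzymes and sensors. Of 53 measured members, 16 were called higher and 2 lower in the albino strains, 19 and 3 were separated, and the median log2 difference was 0.39. The share of all tested genes called higher was 1.29% and the share called lower 1.44%. Of the 16 higher calls, 10 were kept in every alternative analysis with a value, and of the 2 lower ones 0 were. The count of higher calls was 12 without A/J 1 and A/J 2, 29 without A/J 3 and C57BL/6J 3, and between 10 and 24 when 1 library was left out. Summed over the list, the albino libraries were at 658 to 803 scaled RPKM and C57BL/6J at 497 to 1007, so the list's total overlapped between the groups.

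Ifi44 and H28 (Ifi44l), neighbouring interferon-induced genes, were among the highest differences. Ifi44 was at 15.5, 15.9 and 7.82 scaled RPKM for A/J, 6.25, 5.75 and 5.49 for BALB/c, and 0.793, 0.626 and 0.293 for C57BL/6J. All albino values were above all C57BL/6J values by at least 2.21 on the log2 scale (log2 difference 3.11, SE 0.24, adjusted p = 0.00016). H28 was at 7.82, 7.56 and 3.92 for A/J and 2.92, 2.42 and 2.72 for BALB/c, while C57BL/6J was listed at 0, 0 and 0.0172. Gbp1 (Gbp2b), an interferon-induced GTPase, gave a like pattern, at 9.85, 9.81 and 4.3 for A/J, 4.36, 4.05 and 3.94 for BALB/c, and 0, 0 and 0.00861 for C57BL/6J. Because C57BL/6J was at or near 0, the fitted differences of H28 (3.19, SE 0.2, adjusted p = 4e-05) and Gbp1 (3.59, SE 0.23, adjusted p = 5.4e-05) depend on the 0.5 added and no fold is given.

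The ubiquitin-like modifier Isg15 was the most abundant of the called members, at 39.6, 28 and 52 scaled RPKM for A/J, 37.3, 36.8 and 44.7 for BALB/c, and 11, 9.02 and 13 for C57BL/6J. The ratio of the means was 3.61 (log2 difference 1.79, SE 0.2, adjusted p = 0.0012). Of the oligoadenylate synthetases, which make the second messenger that activates RNase L, 3 were higher: Oas1a by 1.67 (SE 0.21, adjusted p = 0.0025), Oas2 by 1.88 (SE 0.17, adjusted p = 0.00043) and Oas3 by 1.5 (SE 0.15, adjusted p = 0.00066) on the log2 scale. Oas1a shares 68.8% of its 31-base words with other loci, so its level is uncertain. Zbp1, a sensor of Z-form nucleic acid, was at 2.64 to 3.97 in the albino libraries and at 0.706 to 1.23 in C57BL/6J (log2 difference 1.27, SE 0.14, adjusted p = 0.00092). Rtp4 (1.51, SE 0.22, adjusted p = 0.0058) and Ifi27 (1.29, SE 0.13, adjusted p = 0.00055) were also higher and kept their calls in all 21 alternatives. Irf7, the transcription factor that amplifies the response, was higher by 0.95 (SE 0.2, adjusted p = 0.037), a call lost in 6 of the 9 omissions. Trim30, Dhx58, Gbp4, Mx2 and Usp18 were called as well, with differences from 0.65 to 1.18, and each lost its call in 2 or more omissions of 1 library. The transcription factors Stat2 (0.04, SE 0.1, adjusted p = 0.85) and Irf9 (-0.05, SE 0.3, adjusted p = 0.95) were not called. Isg20, an exonuclease, was lower in the albino strains, at 0.716 to 1.21 against 1.87 to 2.16 (log2 difference -0.78, SE 0.13, adjusted p = 0.013, and 0.062 when C57BL/6J 2 was left out), and so was Ifit3 (-0.97, SE 0.21, adjusted p = 0.042), which shares 61.8% of its words with other loci and lost its call in 8 of 9 omissions.

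The promoters of the list's members were searched for 2 copies of GAAA separated by any 2 bases, the core of the interferon-stimulated response element, on both strands. Each window covers 250 bases before to 50 bases after the annotated start, from RefSeq on GRCm38.p6. Of 16 members called higher, 8 had a window, and 5 of these 8 held the letters. Of the members not called higher, 31 had a window and 15 of these held them (48.4%), while 3.99% of all 27025 genes in the table did (3.44% of all windows). The windows of Ifi44, H28 and Irf7 held no match. The 4 windows below are shown 5′ to 3′ on the gene's strand, with matches in capitals; overlapping matches run together, as in Isg15, which had 3, and Oas1a, which had 2.
Isg15, chr4:156200769-156201068, - strand: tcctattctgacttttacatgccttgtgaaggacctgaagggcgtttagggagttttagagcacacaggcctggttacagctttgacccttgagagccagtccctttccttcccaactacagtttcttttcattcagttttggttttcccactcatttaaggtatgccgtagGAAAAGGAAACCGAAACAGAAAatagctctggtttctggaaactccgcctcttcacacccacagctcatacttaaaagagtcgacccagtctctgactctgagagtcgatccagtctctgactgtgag
Oas1a, chr5:120907476-120907775, - strand: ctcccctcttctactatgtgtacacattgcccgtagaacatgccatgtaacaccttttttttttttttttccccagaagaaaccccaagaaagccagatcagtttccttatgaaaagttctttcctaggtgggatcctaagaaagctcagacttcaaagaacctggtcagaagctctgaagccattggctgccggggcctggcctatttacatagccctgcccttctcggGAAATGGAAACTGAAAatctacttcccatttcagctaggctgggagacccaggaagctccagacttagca
Oas3, chr5:120777610-120777909, - strand: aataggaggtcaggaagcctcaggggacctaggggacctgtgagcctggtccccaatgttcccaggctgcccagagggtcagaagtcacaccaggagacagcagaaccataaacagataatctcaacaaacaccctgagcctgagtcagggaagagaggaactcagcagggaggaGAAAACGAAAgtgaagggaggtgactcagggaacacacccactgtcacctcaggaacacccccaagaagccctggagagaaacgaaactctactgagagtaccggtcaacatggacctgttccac
Gbp2b (Gbp1 in the deposited tables), chr3:142594597-142594896, + strand: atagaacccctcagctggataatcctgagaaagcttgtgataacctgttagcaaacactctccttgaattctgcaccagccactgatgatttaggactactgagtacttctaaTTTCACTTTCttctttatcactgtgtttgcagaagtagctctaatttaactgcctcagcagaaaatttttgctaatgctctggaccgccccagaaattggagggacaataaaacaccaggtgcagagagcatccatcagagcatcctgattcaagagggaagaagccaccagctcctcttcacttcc
A match is a description of these letters only. Oas3 and Gbp1, with 1 match each, and Isg15 and Oas1a were all higher in the albino strains, and so were Ifi44 and H28, whose windows held none.

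**Figure D3:**
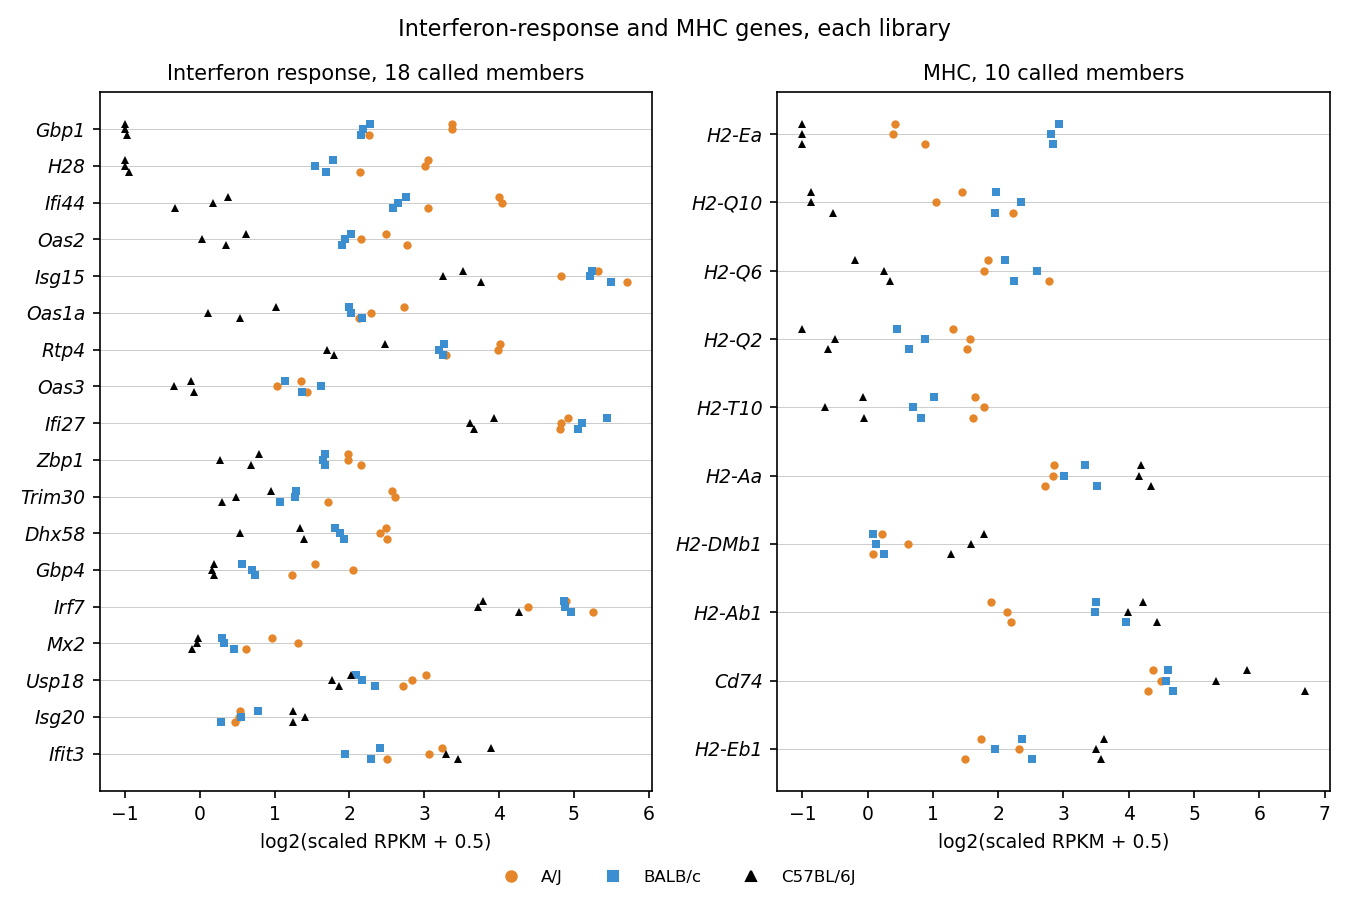
The 18 called interferon-response genes (left) and the 10 called genes of the MHC list (right) in each library. The x axis is log2(scaled RPKM + 0.5), and each symbol is 1 library of A/J (circles), BALB/c (squares) or C57BL/6J (triangles). Interferon genes from Gbp1 to Usp18 lie to the right of C57BL/6J in all 6 albino libraries, Isg20 and Ifit3 to the left, and the MHC genes fall into 5 higher and 5 lower.

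The MHC and antigen presentation list held calls in both directions. Class I molecules present peptides from inside the cell to CD8 T cells and class II molecules present ingested peptides to CD4 T cells. Of 23 measured members, 5 were called higher in the albino strains, 4 of them class I genes of the Q and T regions and the other H2-Ea, and 5 were called lower, all in the class II pathway. H2-Ea, the alpha chain of the class II E molecule, has a known promoter deletion in the haplotype of C57BL/6J: it was listed at 0 in its 3 libraries, at 0.841, 0.811 and 1.34 scaled RPKM for A/J, and 7.13, 6.52 and 6.66 for BALB/c (log2 difference 2.71, SE 0.13, adjusted p = 7.3e-06). The other called class II genes were lower in the albino strains. H2-Aa was at 6.71, 6.69 and 6.04 for A/J, 9.55, 7.52 and 10.9 for BALB/c, and 17.8, 17.4 and 19.8 for C57BL/6J (log2 difference -1.19, SE 0.13, adjusted p = 0.0011). H2-Eb1, the beta chain that pairs with H2-Ea, gave -1.50 (SE 0.2, adjusted p = 0.0033), H2-Ab1 -1.35 (SE 0.16, adjusted p = 0.0016), and H2-DMb1, part of the peptide loader, -1.32 (SE 0.16, adjusted p = 0.0021). H2-Ab1 was at 3.21, 3.91 and 4.09 for A/J, 10.8, 10.7 and 15 for BALB/c, and 18.1, 15.3 and 21.1 for C57BL/6J. Against C57BL/6J alone, H2-Ab1 was called lower in A/J (-2.13, adjusted p = 3.2e-04) but not in BALB/c (-0.56, adjusted p = 0.18). Cd74, the invariant chain, was at 19.1 to 25 in the albino libraries and at 55.5, 39.7 and 103 in C57BL/6J (log2 difference -1.44, SE 0.25, adjusted p = 0.016), and that call was lost without BALB/c 1, BALB/c 2 or C57BL/6J 1. The MHC genes of the 3 strains are of different haplotypes, so reads of their alleles may differ from the reference, which derives from C57BL/6J; the effect of mapping was not tested. Of the 5 genes called higher, H2-Q2, H2-Q6 and H2-T10 share 32.8% to 61.4% of their 31-base words with another locus, and without genes that share sequence or have no value for it, the latter including H2-Ea, 1 of the list was called higher and 4 lower.

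H2-Q10, a class I gene known for a secreted product of the liver, was at 2.21, 1.56 and 4.16 scaled RPKM for A/J, 3.4, 4.59 and 3.36 for BALB/c, and 0.0478, 0.0497 and 0.189 for C57BL/6J (log2 difference 2.58, SE 0.24, adjusted p = 0.00052). This gene shares 18.1% of its words with another locus, just under the limit of 20% for leaving a gene out. H2-Q6 gave 2.09 (SE 0.24, adjusted p = 0.0017), H2-Q2 1.76 (SE 0.16, adjusted p = 0.00035) and H2-T10 1.52 (SE 0.16, adjusted p = 0.00086). The classical class I genes H2-K1 (-0.47, SE 0.13, adjusted p = 0.11) and H2-D1 (-0.4, SE 0.1, adjusted p = 0.081), which also share sequence with other loci, were not called. H2-T22, a class I gene of the T region that shares 62.1% of its words, was separated and lower in the albino libraries, at 0 to 1.83 against 1.84 to 4.39, but was not called (-1.32, SE 0.31, adjusted p = 0.072). Beside the class II genes, the summed level of microglia and macrophage markers was lower in the albino libraries. Of all genes tested, 2.73% were called and 3.75% were separated and lower. The 28 measured markers had 1 call, 5 separated genes, all lower, and a median of -0.22. The list's sum was 368 to 470 in the albino libraries and 479 to 596 in C57BL/6J. Sums of the cone list (487 to 609 against 614 to 706) and the cytokine list (222 to 246 against 254 to 290) were also lower in every albino library. Of the separated microglia and macrophage markers, Itgam was at 8.08, 7.33 and 21.8 in C57BL/6J, the highest in C57BL/6J 3, and was not called. The called member was C1qb, a complement component made by microglia, at 13.4 to 16.7 against 24.7 to 27.6 (log2 difference -0.72, SE 0.12, adjusted p = 0.011), which no longer passed when C57BL/6J 2 was left out (0.059). The part of these cells in the class II result was not tested.

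Of the surface epithelium genes, 4 keratins were lower in the albino strains. The cornea is covered by an epithelium marked by Krt12 and the conjunctiva by one that contains Krt4 and Krt13; Krt15 marks basal cells. Of 23 measured genes of this list, 4 were called lower and 0 higher, and the list's median was -0.50, with a median of -0.09 among its members that were not called. Krt15 was at 47.4, 57.1 and 48.1 scaled RPKM for A/J, 164, 129 and 141 for BALB/c, and 462, 309 and 821 for C57BL/6J (log2 difference -2.51, SE 0.26, adjusted p = 0.00088). The 3 strains did not overlap, in the order A/J, BALB/c, C57BL/6J. Krt13 followed the same order, at 34.5, 31.3 and 30.7, then 65.3, 72.5 and 76.6, then 221, 150 and 289 (log2 difference -2.14, SE 0.19, adjusted p = 0.00035). Krt4 was at 5.33 to 12.8 in the albino libraries and 31.9 to 81 in C57BL/6J (log2 difference -2.38, SE 0.28, adjusted p = 0.0017). Krt17 was lower too (log2 difference -2.25, SE 0.27, adjusted p = 0.002; the deposited description of this row names another keratin, and the symbol was used). All 4 calls were kept in every alternative. In contrast, the corneal keratin Krt12 was not called (0.6, SE 0.18, adjusted p = 0.15), nor were Krt5 (0.09, SE 0.14, adjusted p = 0.76) and the corneal crystallin Aldh3a1 (0.13, SE 0.19, adjusted p = 0.76). How much conjunctiva each library carried was not tested. Skeletal muscle, which an enucleated eye can also carry, had 26 measured genes with 2 calls, both lower, beside 1.44% of all genes tested. The 2 were Tnni1, slow troponin I (-1.07, SE 0.13, adjusted p = 0.0016), and Mb, myoglobin (-0.93, SE 0.19, adjusted p = 0.032). The call of Mb was lost in 10 of 21 alternatives, 6 of them omissions of 1 library (up to 0.12). The muscle list's sum ranged from 2042 to 3260 in the albino libraries and from 2525 to 2883 in C57BL/6J.

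Most lens genes had positive differences, but few passed the test. Of 30 measured members, 26 had a positive difference, 6 were separated, all higher, the median was 0.50, and 1 was called higher and 1 lower. Among all genes tested, 2.73% were called and 3.6% were separated and higher. Grifin, a galectin-related lens protein, was at 602 to 1121 scaled RPKM in the albino libraries and at 558, 551 and 340 in C57BL/6J (log2 difference 0.81, SE 0.16, adjusted p = 0.033). Omitting A/J 1, A/J 2 or any 1 of the BALB/c libraries ended that call (up to 0.11), and without C57BL/6J 2 the count of lens genes called higher was 9. The lens sum was 136975 in C57BL/6J 3, 187566 in C57BL/6J 1 and 238266 in C57BL/6J 2, against 230466 to 324603 in the albino libraries, so C57BL/6J 2 lay within their range. The one called lower, Gluld1 (lengsin, Lgsn), overlapped: A/J was low, at 421, 426 and 346, while BALB/c at 1592 to 1839 and C57BL/6J at 1126 to 1861 overlapped. Its call was lost in 7 omissions. In the anterior segment list, Car4, a membrane carbonic anhydrase, was higher in the albino strains, at 2.4 to 3.85 against 0.43 to 0.636 (ratio of the means 5.8, log2 difference 1.81, SE 0.15, adjusted p = 0.00018). Car12, another carbonic anhydrase, was called too (0.51, SE 0.11, adjusted p = 0.038) and lost the call in 8 of 9 omissions.

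Antioxidant and stress genes gave 3 higher and 2 lower calls among 57 members, beside 1.29% and 1.44% of all genes tested. Nnt, the mitochondrial transhydrogenase that supplies NADPH and that carries a known deletion in C57BL/6J, was at 9.78, 10.3 and 7.97 scaled RPKM for A/J, 7.08, 7.02 and 7.05 for BALB/c, and 4.89, 4.18 and 3.41 for C57BL/6J (log2 difference 0.9, SE 0.14, adjusted p = 0.0075). Gpx3, the secreted glutathione peroxidase, was lower in the albino strains, at 32.6, 29.4 and 27.7 for A/J, 83.4, 90.8 and 89.2 for BALB/c, and 191, 125 and 251 for C57BL/6J (log2 difference -1.81, SE 0.19, adjusted p = 0.001). Gsto1, a glutathione transferase, was at 628 to 1068 against 1711 to 2920 (log2 difference -1.46, SE 0.22, adjusted p = 0.0082). Gsr and Glo1 were the other higher calls, at 0.65 and 1.17 on the log2 scale, and were lost in most omissions. Among 26 heat shock genes the 1 call was Hspa8, a chaperone that was lower in the albino strains (log2 difference -1.48, SE 0.12, adjusted p = 0.00021), which shares 73.9% of its words with other loci. Of the cytokine genes, 28 measured, Ccl27 (Ccl27a), a skin-type chemokine, was lower (log2 difference -2.22, SE 0.19, adjusted p = 0.00035) but shares 62.4% of its words, and Il1r2, the decoy receptor for interleukin-1, was lower (log2 difference -1.46, SE 0.25, adjusted p = 0.016), a call lost in 4 omissions.

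Neuropeptide genes differed in both directions, with 4 called higher and 2 lower of 19, beside 1.29% and 1.44% of all genes tested. Of the 4 higher calls, 0 were kept in every alternative analysis with a value, and of the 2 lower ones 1 was. Cck, a peptide of amacrine cells, was at 6.9, 6.3 and 8.52 scaled RPKM for A/J, 13, 14.5 and 13.8 for BALB/c, and 26.6, 26.6 and 30.3 for C57BL/6J (log2 difference -1.43, SE 0.12, adjusted p = 0.00025). Penk1, the enkephalin precursor, was at 37.9 to 46.1 in the albino libraries and 65.3 to 104 in C57BL/6J (log2 difference -0.96, SE 0.14, adjusted p = 0.0077). Npy was at 30.8, 33.5 and 30.7 for A/J, 75.6, 66.1 and 79.4 for BALB/c, and 26.1, 28.2 and 23.8 for C57BL/6J (log2 difference 0.88, SE 0.11, adjusted p = 0.0022), and the A/J difference alone was not called (0.28, adjusted p = 0.29). Avp, vasopressin, was called (3.79, SE 0.34, adjusted p = 0.00039) although it overlapped: BALB/c alone was high, at 67, 92.8 and 72.8. A/J was at 0.912 to 1.93 and C57BL/6J at 0, 1.05 and 0.232. Scg5 (1.03, SE 0.18, adjusted p = 0.017) and Sst (0.92, SE 0.2, adjusted p = 0.048) were the other calls, lost in 4 and 8 omissions. Lists with no call were melanosome transport, pigment epithelium, lacrimal gland, blood, endothelium, extracellular matrix, myelin, clock and immediate early genes. In some separated genes C57BL/6J 3 stood apart, as in Psap, a lysosomal precursor protein, at 413, 428 and 1986 in C57BL/6J and 340 to 401 in the albino libraries, which was not called. Of the lists without a call, 22 of 23 endothelial genes had a negative difference (median -0.25, 3 separated), and 16 of 18 myelin genes a positive one (median 0.95), with the list's sum at 1534 in A/J 1 and between 436 and 702 in the other albino libraries.

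**Figure D4:**
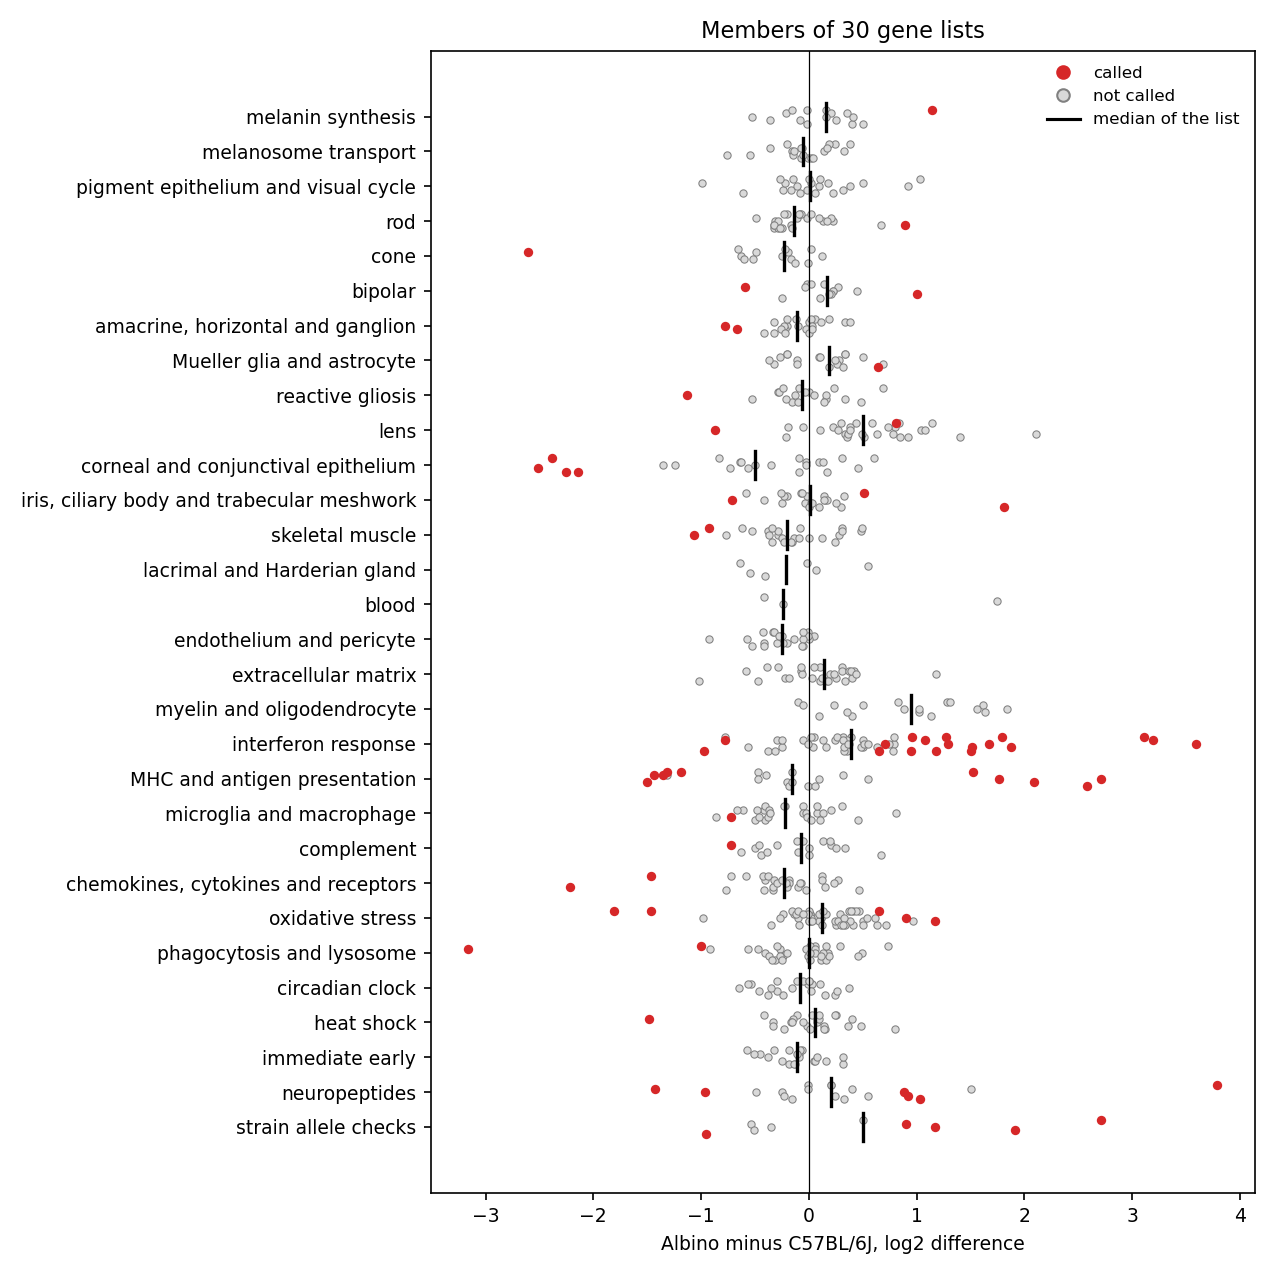
Albino minus C57BL/6J log2 difference of every measured member of 30 gene lists. Each row is a list, each point a gene (red called, grey not called), and the bar is the list's median. The interferon list has 16 red points to the right, the corneal and conjunctival list 4 to the left, and the lens and myelin lists have medians of 0.50 and 0.95 with few or no calls.

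A list of 9 tested genes known to carry alleles that differ between common strains gave 4 higher calls and 1 lower. Wdfy1, an endosomal adaptor gene, was at 10.7 to 14.5 against 2.55 to 3.02 (ratio of the means 4.26, log2 difference 1.91, SE 0.12, adjusted p = 2.8e-05). The other higher calls were H2-Ea, Nnt and Glo1, given above. Entpd4, an ectonucleotidase family gene, was lower, at 19.9 to 25 against 42.4 to 47.2 (log2 difference -0.95, SE 0.11, adjusted p = 0.0012), and shares 100% of its words with another locus.

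Outside the lists, several of the largest differences were in genes with little signal in C57BL/6J. Rtkn2, a gene for a small GTPase-binding protein, was at 8.53, 9.52 and 6.7 scaled RPKM for A/J, 6.94, 6.28 and 7.25 for BALB/c, and 0.487, 0.507 and 0.293 for C57BL/6J (log2 difference 3.11, SE 0.14, adjusted p = 5.4e-06). Sox30, a transcription factor of male germ cells, was highest in A/J (7.12 to 8.45), lower in BALB/c (2.71 to 3.13) and at 0.172 to 0.353 in C57BL/6J (log2 difference 2.79, SE 0.12, adjusted p = 4.3e-06). Its neighbour Thg1l was higher in the albino strains too (1.62, SE 0.17, adjusted p = 0.00094). Car6, a carbonic anhydrase secreted in saliva, was at 11.9 to 17.3 against 1.91 to 3.57 (log2 difference 2.21, SE 0.17, adjusted p = 0.00016). The salivary proline-rich genes Prpmp5 (2.48, SE 0.15, adjusted p = 3.7e-05) and Prb1 (2.06, SE 0.17, adjusted p = 0.00025), which lie side by side, share 45.1% and 44.5% of their words with other loci. Cyp24a1, the enzyme that inactivates vitamin D, was at 1.43 to 4.51 against 0.249 to 0.275 (log2 difference 2.08, SE 0.11, adjusted p = 1.3e-05). Hist2h2bb, a histone gene (2.07, SE 0.3, adjusted p = 0.0066), and Ins2, an insulin gene (1.92, SE 0.21, adjusted p = 0.0011), complete the 15 highest by the naming rule. Alad and Hdhd3, neighbours, were also higher together: Alad, an enzyme of haem synthesis, by 1.66 (SE 0.17, adjusted p = 0.00074) and Hdhd3 by 1.89 (SE 0.13, adjusted p = 5.7e-05).

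**Figure D5:**
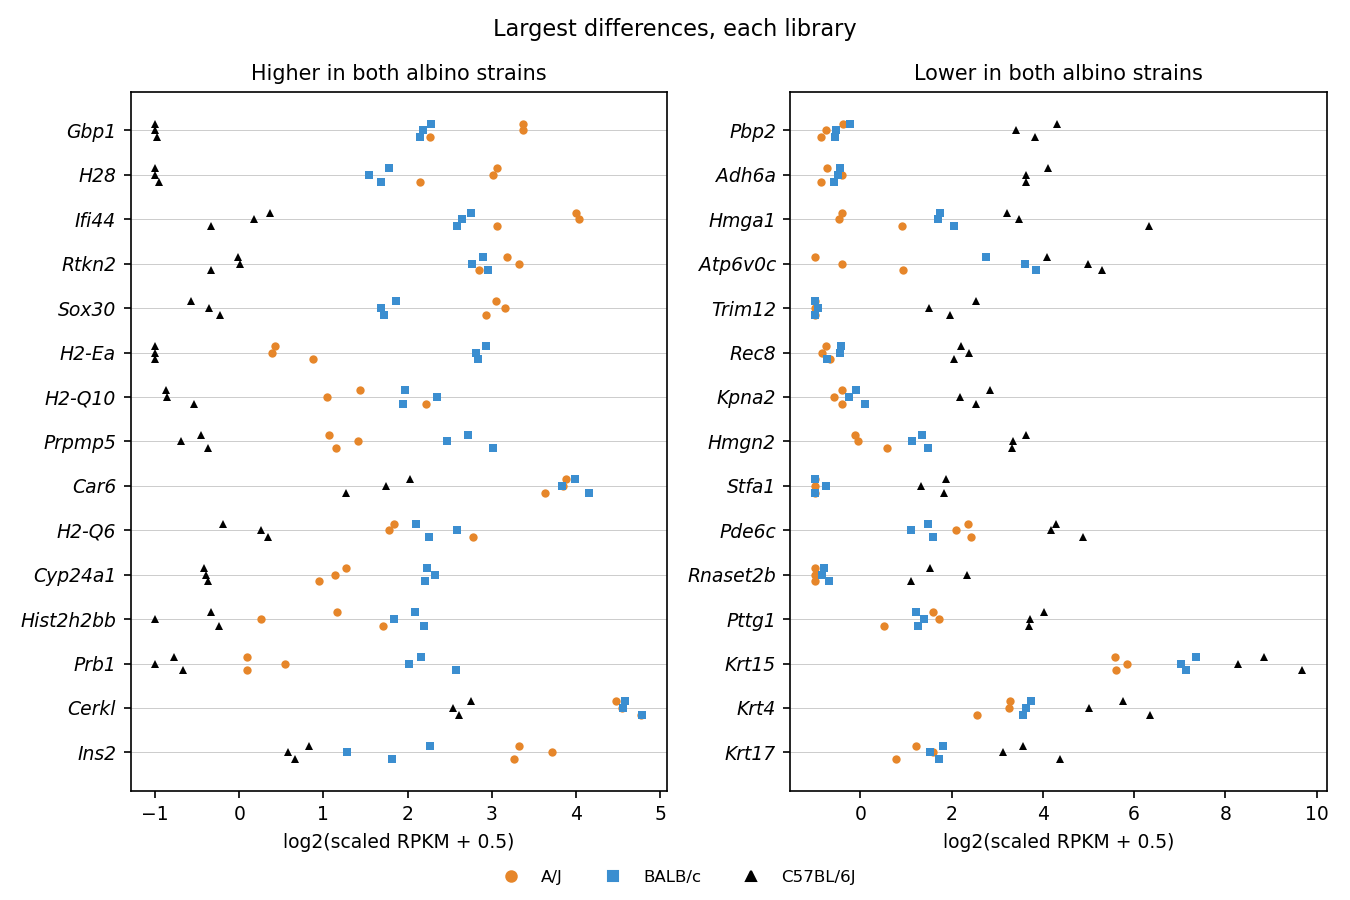
The 15 largest differences in each direction under the naming rule, in each library. The x axis is log2(scaled RPKM + 0.5), with higher genes left and lower genes right, and each symbol is 1 library of A/J (circles), BALB/c (squares) or C57BL/6J (triangles). For each gene the 3 triangles lie on 1 side of the 6 albino symbols, with a gap of 4.03 for Adh6a, 3.13 for Gbp1 and 0.23 for Atp6v0c on the log2 scale.

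On the lower side, Pbp2 and Adh6a had almost no signal in the albino libraries. Pbp2, a phosphatidylethanolamine-binding protein, was at 0.0495 to 0.358 scaled RPKM in the albino libraries and at 19.4, 10.1 and 13.6 in C57BL/6J (log2 difference -4.40, SE 0.21, adjusted p = 7e-06). Adh6a, an alcohol dehydrogenase, was at 0.0495 to 0.253 and at 16.7, 11.8 and 11.9 (log2 difference -4.37, SE 0.16, adjusted p = 9.8e-07). The C57BL/6J means were 75.7-fold and 79.3-fold the albino means, but these folds are uncertain because the albino values were near 0 and the depth is unknown. All albino values of both genes lay below the 0.5 added, so their fitted differences depend on it. Rec8, a cohesin subunit of meiosis, was at 0.0608 to 0.242 against 3.62 to 4.74 (log2 difference -2.85, SE 0.13, adjusted p = 5.4e-06), and Pttg1, securin, at 0.93 to 2.79 against 12.5 to 15.7 (log2 difference -2.53, SE 0.25, adjusted p = 0.00061). Trim12 (Trim12a) was listed at 0 in 5 albino libraries and at 0.0214 in BALB/c 2, against 5.27, 2.35 and 3.4 in C57BL/6J. Stfa1, a cysteine protease inhibitor, was listed at 0 in 5 and at 0.0963 in BALB/c 2, against 3.14, 2.01 and 3.05. Hmga1, Atp6v0c, Trim12, Kpna2, Hmgn2, Stfa1 and Rnaset2b each share from 28.8% to 80.5% of their words with another locus, so their levels are uncertain. Hmga1 (-3.42, SE 0.64, adjusted p = 0.024) was at 79.9 in C57BL/6J 3 against 8.76 and 10.7 in the other C57BL/6J libraries, and it was no longer called in the 5 omissions of A/J 1, of A/J 2 and of each BALB/c library (up to 0.07).

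Several of the most extreme values were in genes that share sequence with other loci. Among 297 called and separated genes with a value, 16.5% shared at least 20% of their 31-base words with another locus, against 5.02% of all tested genes. EG433182, a copy-like gene named here after its value was seen, was at 21.8 to 50.7 in the albino libraries and 0.0172 to 0.287 in C57BL/6J (log2 difference 5.72, SE 0.17, adjusted p = 6.9e-07) and shares 89.2% of its words. Ribosomal protein genes, of which 67 of 82 tested share at least 20%, gave 6 higher and 9 lower calls. Rpl26 was at 0 to 2.03 scaled RPKM in the albino libraries and at 186, 119 and 144 in C57BL/6J (log2 difference -6.80, SE 0.31, adjusted p = 6.5e-06), while the 6 higher calls reached 1.65. Without the genes that share at least 20% and those with no value for it, 262 of 12053 genes were called.

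Separated genes also lay side by side. Of 939 with a place in the annotation, 216 (23%) had a separated gene next to them, against 13.3% of the other tested genes, and 14 runs of 3 or more genes held 48 of them. Of 31 adjacent pairs of called genes, 24 differed in the same direction, among them Itga4 with Cerkl, Ifi44 with H28, Oas2 with Oas3, Krt13 with Krt15, and Nefl with Nefm. H2-Eb1 and H2-Ea were a pair in opposite directions. Many such pairs are members of 1 gene family. Prb1 and Prpmp5 share 44.5% and 45.1% of their 31-base words with other loci. The shares were 0.2% and 3.9% for Krt13 and Krt15, 0% and 0.3% for Nefl and Nefm, and 0.5% and 0% for Ifi44 and H28. The part of shared reads in these pairs was not tested.

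A/J against BALB/c was called in 37 of the 949 separated genes (3.9%), against 2.45% of all tested genes. Separation uses the same A/J and BALB/c values and leaves out genes in which these strains lie on opposite sides of C57BL/6J, so these shares are a description and nothing is read from them. Of the 53 called genes that overlapped, 50 were called between A/J and BALB/c. Clone names, predicted genes and sex-chromosome genes were also passed over in naming the called genes nearest the limit of separation. The gap between the nearest libraries of the 2 sides was 0.02 for Osr2 and 0.03 for Mb on the log2 scale. Glo1 and Ndufab1 lay just outside, with gaps of -0.03 and -0.05. H2-Ab1 also had a gap of 0.03, and EG114600, a predicted gene that was passed over, had 0.00. Within the separated genes, the C57BL/6J library nearest to the albino values was C57BL/6J 1 in 367, C57BL/6J 2 in 381 and C57BL/6J 3 in 201 genes.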

How the data were processed

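Poly(A) RNA of whole eyes was sequenced in 9 libraries, 3 each of A/J, BALB/c and C57BL/6J, grouped by the strain label. The authors deposited 1 expression value per gene and library, read here as RPKM: with annotated transcript lengths the totals came to 99.4% to 101.8% of what RPKM implies in 8 libraries and 117.4% in C57BL/6J 3. Per the submitters' processing notes, CASAVA 1.7, GenomeStudio and the mouse build mm9 were used; the counting rule is not given in the sources used here. Whole reads could not be recovered, so depth is unknown and no intervals from counts are given.

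Each library was scaled by a size factor (median of ratios, 0.9345 to 1.1619) and analysed as log2(scaled RPKM + 0.5). Genes with at least 1 scaled RPKM in at least 3 libraries were kept (175 were not). limma 3.58.1 in R 4.3.3, with a trended and robust prior, fitted 3 strain means to all 9 libraries, and p-values are two-sided with Benjamini-Hochberg adjustment over all genes tested. On simulated data for this contrast over 12914 genes, 62% of genes changed by 1 and 96% of those changed by 2 on the log2 scale were recovered, with 9 false calls. The simulated noise was independent between genes and libraries and of equal spread in all strains. The real libraries had GC trends and unequal spread, so these rates need not hold for them. Gene order, GC content, length and shared 31-base sequence came from GRCm38, not mm9, and matched 98.2% of genes. Figures were drawn with matplotlib 3.10.9.

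The members and gene lists were chosen with earlier results of these data known. Named genes were the 15 largest differences in each direction (called, separated, at least 1 in log2 and 2 scaled RPKM in the higher side), up to 3 called genes per list or else its most abundant member, the main pigment genes and Rpe65. Clone names, predicted genes, ribosomal protein genes, sex-chromosome genes and Hc were passed over for the 15 largest. A gene that this rule names is not reported here. Other list members, Itga4, Alad, Hdhd3, Thg1l, EG433182 and Rpl26 were chosen after their values were seen. Alternatives were other pseudocounts, filters and scalings, a GC correction, a replicate block, 1 albino group, no genes that share sequence or lack a value for it, and omission of libraries.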

Additional observations from a re-analysis of the deposited data

Results flagged for a closer look

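For 23 named genes the difference from C57BL/6J was not the same in A/J and BALB/c: the contrast A/J minus BALB/c, which equals the difference of the 2 strain effects, was called by limma over all genes. A/J was the higher albino strain for H28 (1.07 on the log2 scale), Sox30 (1.29), Ins2 (1.65), Serpina3n (0.87), Tnni1 (0.89) and Glo1 (1.48). BALB/c was the higher one for H2-Ea (-2.30), Prpmp5 (-1.52), Prb1 (-2.0), Cyp24a1 (-1.14), Atp6v0c (-3.56) and Hmgn2 (-1.18). It was also higher for the keratins Krt15 (-1.50) and Krt13 (-1.14), for Gpx3 (-1.54), Hspa8 (-1.14), Osr2 (-1.19), Ndufab1 (-1.35), Prkca (-1.24) and Gluld1 (-2.11). Among neuropeptides, BALB/c was higher for Cck (-0.89), Npy (-1.20) and Avp (-5.51). Groups of 3 libraries were not tested for a single outlying library.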

How the results depend on the processing

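The count of called genes (353) was 187 with the 6 albino libraries as 1 group, 554 after a correction for GC content, 230 without A/J 1 and A/J 2, 1421 without A/J 3 and C57BL/6J 3, and between 203 and 717 when 1 library was left out. The count of separated genes (949) was 1939 and 1945 under the 2 paired omissions and between 1017 and 1870 when 1 library was left out, where fewer libraries have to be separated. Separated genes called between A/J and BALB/c (37) numbered 14 without genes that share sequence or have no value for it, 15 without A/J 1 and A/J 2, 603 without A/J 3 and C57BL/6J 3, and between 18 and 199 when 1 library was left out. Apart from the fewer libraries or genes in these settings, the cause was not tested. With the values as deposited, 31.7% of 394 called genes were higher in the albino strains, against 47.3% of 353, and the median difference of all genes was -0.136. The replicate block gave 359 calls, but same-numbered libraries did not all deviate together (correlations from -0.514 to 0.536), so the numbers were not taken as pairs.

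Of 63 named genes called, 37 kept the call in every alternative and 49 in every omission of 1 library. The only alternative that ended the calls of H2-Ea, Prb1, Ins2, Atp6v0c, Serpina3n, Tnni1, Gpx3, Hspa8, Avp and Npy was 1 albino group. Besides omissions of libraries, the call of Grifin was lost under quantile normalization and the GC correction, among others. That of Car12 was lost with the values as deposited and the replicate block, among others, and that of Kcnj10 with the values as deposited. The genes whose difference changed sign were not among the 63 called. Bloc1s1 was -0.00 with the values as deposited. Sparc was -0.16 without A/J 3 and C57BL/6J 3 and between -0.20 (without C57BL/6J 3) and 0.46 when 1 library was left out, and Mal was 0.23 and between -0.28 and 0.12 (without C57BL/6J 3). Nr1d1 was -0.13 with the values as deposited, -0.14 without A/J 3 and C57BL/6J 3, and between -0.11 (without A/J 3) and 0.08 when 1 library was left out (-0.02 without BALB/c 3, -0.01 without C57BL/6J 2 or C57BL/6J 3). Tyr was -0.02 without A/J 3 and C57BL/6J 3 and between -0.09 (without C57BL/6J 3) and 0.31 when 1 library was left out, and Tyrp1 was -0.02 without A/J 1 and A/J 2. Slc45a2 was 0.01 under quantile normalization, 0.02 without A/J 3 or C57BL/6J 2, 0.04 without BALB/c 1 and 0.09 without C57BL/6J 1. The unknown depth limits what can be said of genes near 0.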
